A study of Mus musculus with 16 samples.

Results

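The immunoglobulin heavy variable genes (Ighv) are the 113 genes that GENCODE vM21, the annotation of the GRCm38/mm10 mouse genome, lists as IG_V_gene with a symbol that begins with Ighv, out of 55413 genes on chromosomes 1 to 19, X and Y. All 113 lie on the minus strand of chromosome 12, from 113578504 to 116000461, a span of 2422 kb. The nearest, Ighv5-2, starts 155.8 kb from Ighm, the constant gene of the mu heavy chain, and the farthest, Ighv1-85, lies 2577.3 kb from it. Each was followed through DNA methylation and read depth in 8 whole-genome bisulphite libraries of resting B cells and 8 of naive T cells.

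The B cells were taken from spleens of C57BL/6J mice aged 6 to 8 weeks by magnetic sorting for cells without CD43, and the T cells from spleens of the same strain and ages by magnetic sorting for CD4 and CD62L. The labels give no transgene, deletion or treatment for either group. In each group 4 libraries came from males and 4 from females, and within each sex 2 libraries were made by bisulphite sequencing (BS), which reads 5-methylcytosine and 5-hydroxymethylcytosine alike, and 2 by oxidative bisulphite sequencing (oxBS), in which an oxidation step leaves 5-methylcytosine alone to be read as methylated. The labels name no individual mouse. They state that a part of each ligated DNA sample was oxidised, so a BS and an oxBS library may come from 1 DNA sample, and p-values measure only the spread between these libraries.

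A heavy chain gene is assembled from a V, a D and a J segment, and joining usually removes the DNA that lay between the joined segments. Each V gene is a short transcription unit with its own promoter, a leader exon and a V exon, and a recombination signal that begins with a heptamer follows the V exon directly. The D and J segments lie between the V genes and Ighm, so a V gene close to Ighm is lost whenever a more distant V gene is joined. The libraries were prepared from bulk DNA, so a lower level or depth in some copies of every cell cannot be told apart from a large change in some of the cells. In B cells the calls come only from copies that are still present.

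The sequences below are the last 300 bases of 7 V exons, or 300 bases up to the annotated gene end, shown so that the CpGs described with them can be placed. They were read from the GRCm38/mm10 reference on the minus strand and run 5′ to 3′ towards the recombination signal, with each CpG in capitals. Ighv1-69, Ighv1-59 and Ighv1-66 were more methylated in B cells and Ighv1-26 in T cells. Ighv1-36 is a highly methylated relative of these genes, Ighv9-4 is a gene with little methylation, and Ighv5-2 is the V gene nearest to Ighm. The positions are chr12:115623161-115623460 for Ighv1-69, chr12:115335082-115335381 for Ighv1-59, chr12:115593110-115593409 for Ighv1-66, chr12:114788372-114788671 for Ighv1-26, chr12:114879888-114880187 for Ighv1-36, chr12:114299961-114300260 for Ighv9-4 and chr12:113578504-113578803 for Ighv5-2.
Ighv1-69: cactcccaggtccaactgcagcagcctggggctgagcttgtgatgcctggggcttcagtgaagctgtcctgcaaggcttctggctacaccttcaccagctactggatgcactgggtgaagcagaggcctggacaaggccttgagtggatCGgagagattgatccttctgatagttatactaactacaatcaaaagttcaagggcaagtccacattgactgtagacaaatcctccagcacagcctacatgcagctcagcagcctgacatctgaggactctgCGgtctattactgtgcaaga
Ighv1-59: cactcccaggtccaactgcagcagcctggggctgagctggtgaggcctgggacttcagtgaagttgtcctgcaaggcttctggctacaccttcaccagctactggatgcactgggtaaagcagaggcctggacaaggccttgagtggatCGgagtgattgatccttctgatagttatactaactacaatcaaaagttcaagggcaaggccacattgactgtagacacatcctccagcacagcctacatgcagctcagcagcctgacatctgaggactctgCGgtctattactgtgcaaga
Ighv1-66: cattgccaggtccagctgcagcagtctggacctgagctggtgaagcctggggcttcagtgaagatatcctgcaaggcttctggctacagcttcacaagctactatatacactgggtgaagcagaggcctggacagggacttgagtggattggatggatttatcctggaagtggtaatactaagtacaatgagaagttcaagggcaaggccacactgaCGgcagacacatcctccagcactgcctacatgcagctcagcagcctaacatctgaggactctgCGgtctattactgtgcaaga
Ighv1-26: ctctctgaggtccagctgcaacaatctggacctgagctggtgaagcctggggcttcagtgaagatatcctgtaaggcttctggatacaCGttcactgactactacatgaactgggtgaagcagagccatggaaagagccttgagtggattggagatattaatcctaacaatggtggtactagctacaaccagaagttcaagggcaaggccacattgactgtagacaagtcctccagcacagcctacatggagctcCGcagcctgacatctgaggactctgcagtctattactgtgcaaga
Ighv1-36: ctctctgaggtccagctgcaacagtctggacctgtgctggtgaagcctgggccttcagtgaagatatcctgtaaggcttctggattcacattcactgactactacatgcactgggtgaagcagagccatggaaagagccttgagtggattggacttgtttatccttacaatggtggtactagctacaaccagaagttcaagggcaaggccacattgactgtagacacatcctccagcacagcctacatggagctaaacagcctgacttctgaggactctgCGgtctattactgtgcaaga
Ighv9-4: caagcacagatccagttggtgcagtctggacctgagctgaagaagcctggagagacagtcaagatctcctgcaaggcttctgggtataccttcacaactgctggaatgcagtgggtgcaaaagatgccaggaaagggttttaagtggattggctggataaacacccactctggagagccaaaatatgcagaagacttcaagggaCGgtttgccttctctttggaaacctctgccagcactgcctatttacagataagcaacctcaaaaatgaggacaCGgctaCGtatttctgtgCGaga
Ighv5-2: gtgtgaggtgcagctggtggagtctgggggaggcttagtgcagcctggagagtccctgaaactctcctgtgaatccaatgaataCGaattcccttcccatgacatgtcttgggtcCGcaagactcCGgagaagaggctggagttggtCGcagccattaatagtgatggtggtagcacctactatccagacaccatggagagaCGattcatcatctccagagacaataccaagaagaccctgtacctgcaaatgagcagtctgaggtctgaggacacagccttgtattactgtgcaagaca

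The next set is the first 120 bases after the V exon of 7 Ighv1 genes, shown because 1 CpG in some of these stretches carried the widest gap between the cell types among the windows of V genes tested. Capitals again mark each CpG, on the minus strand of the same build. The stretches are chr12:114665752-114665871 after Ighv1-16, chr12:114682512-114682631 after Ighv1-18, chr12:114708528-114708647 after Ighv1-19, chr12:114746153-114746272 after Ighv1-22, chr12:114772808-114772927 after Ighv1-24, chr12:114788252-114788371 after Ighv1-26 and chr12:114879768-114879887 after Ighv1-36. The heptamer CACAGTG stands at base 1 of 6 of them and is absent from the printed stretch of Ighv1-24.
Ighv1-16: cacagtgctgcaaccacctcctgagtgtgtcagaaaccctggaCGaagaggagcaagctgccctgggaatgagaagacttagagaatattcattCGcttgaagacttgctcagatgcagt
Ighv1-18: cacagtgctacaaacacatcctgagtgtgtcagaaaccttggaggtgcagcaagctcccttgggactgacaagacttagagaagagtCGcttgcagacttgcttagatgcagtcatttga
Ighv1-19: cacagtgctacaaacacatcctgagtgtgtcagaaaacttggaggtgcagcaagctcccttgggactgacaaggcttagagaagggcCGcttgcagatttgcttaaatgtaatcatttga
Ighv1-22: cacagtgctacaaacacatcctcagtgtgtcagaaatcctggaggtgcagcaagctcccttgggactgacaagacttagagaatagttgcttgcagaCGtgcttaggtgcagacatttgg
Ighv1-24: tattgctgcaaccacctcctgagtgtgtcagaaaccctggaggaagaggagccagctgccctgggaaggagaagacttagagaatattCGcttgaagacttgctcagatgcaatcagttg
Ighv1-26: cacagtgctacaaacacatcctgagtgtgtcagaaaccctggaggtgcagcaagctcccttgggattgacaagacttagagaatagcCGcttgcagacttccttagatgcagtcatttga
Ighv1-36: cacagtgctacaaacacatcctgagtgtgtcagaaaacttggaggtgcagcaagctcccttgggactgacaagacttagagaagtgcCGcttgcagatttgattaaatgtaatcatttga

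The V genes are 294 to 572 bp long, with a median of 443 bp, and fall into 16 families, of which Ighv1 is the largest with 53 genes. They hold few CpGs, between 0 and 9 per gene with a median of 3. The octamer ATGCAAAT, a known element of immunoglobulin promoters, was searched on both strands in the 500 bp upstream of each start and was found in 90 of the 113 genes (79.6%), against 3.47% of all annotated genes. The heptamer CACAGTG, searched on the strand of the gene alone, lay within 20 bp after the gene end in 82 of 113 (72.6%), against 0.794% of all genes.

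The 16 libraries held between 123693203 and 171130063 calls, where a call is 1 read at 1 CpG, or 5.83 to 8.07 calls per autosomal CpG, and between 78.4% and 81.5% of autosomal calls were methylated. The 2 male BS libraries of B cells listed 242 and 243 positions on unplaced contigs, where every other library listed at least 16429, so results are also given without them where a call changes. The labels were checked against marker genes. Of the 10 T cell markers, 9 were less methylated in T cells over the gene, Cd3d with 2.97% ± 2.03 in T and 65.4% ± 3.22 in B cells (SD, n = 8 each). Of the 10 B cell markers, 2 were less methylated in B cells over the gene and 4 of 9 tested over the 500 bp upstream, Ms4a1 with 1.58% ± 3.39 against 95.6% ± 1.81. Of 7 markers of other spleen cells, only Cd8a passed, at 90.5% in B and 67.3% in T cells.

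Read depth over the V genes fell in B cells with closeness to Ighm, and it was level in T cells. Depth here is the number of calls per CpG over a gene and its 500 bp upstream, divided by the autosomal mean of the same library, so a value near 1 is the depth of the rest of the genome. The counts were compared with edgeR's quasi-likelihood test, with sex and assay as covariates, over the 51862 genes with a mean of at least 10 calls per library, and a call needed an adjusted p (Benjamini-Hochberg) under 0.05 with an absolute log2 fold change of at least 0.3. Of the 113 V genes, 104 could be tested and 54 were called lower in B cells, where 0.343% of all tested genes were called lower. With edgeR 0 V genes were called higher, and 0 at an unadjusted p under 0.05, against 0.357% of all genes called higher, and DESeq2 without its independent filtering also called 0. The median log2 fold change, B over T, was -0.70 over the tested V genes and 0.00 over all genes.

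Ighv5-2, the first V gene upstream of the D segments, had relative depths of 0.0203 to 0.425 with a median of 0.360 in the 8 B cell libraries and of 0.805 to 1.47 with a median of 1.08 in the 8 T cell libraries. Ighv5-4, the third gene in the order from Ighm, ranged from 0.185 to 0.555 around 0.428 in B and from 0.906 to 1.58 around 1.32 in T cells. Neither gene had a B cell library that reached the lowest T cell library. The fold changes were -1.82 ± 0.211 (log2, SE) for Ighv5-2, with an edgeR adjusted p of 1.15e-05, and -1.63 ± 0.155 for Ighv5-4, with an edgeR adjusted p of 6.73e-07.

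The other genes of the nearest 5 had smaller losses of depth on the same log2 scale, -1.30 ± 0.253 for Ighv2-2, -1.32 ± 0.173 for Ighv2-3 and -1.35 ± 0.169 for Ighv5-6, all called by edgeR with adjusted p-values of 0.00673, 6.55e-05 and 3.24e-05. The lowest log2 fold change of all belonged to Ighv2-9 at -1.86 ± 0.337, the 19th gene in the order, where the lowest B cell library had no call, and Ighv2-6 was the fourth lowest at -1.56 ± 0.156. The 44 tested V genes nearest to Ighm were all called, and Ighv6-6, 47th in the order, was the first that was not (log2 -0.62, edgeR adjusted p = 0.0994). The last called gene was Ighv8-4, 76th in the order and 1601.3 kb from Ighm. This does not mark where the lower depth ended, since 98 of the 104 tested V genes had a fold change below 0.

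At the far end the depth of the cell types met. Ighv1-85 had relative depths of 0.996 to 1.85 in B and 0.777 to 1.54 in T cells, and Ighv1-84 of 0.887 to 1.37 and 0.777 to 1.17, so both genes overlapped between the groups. The 4 highest log2 fold changes were 0.25 for Ighv1-78, 0.22 for Ighv1-85, 0.21 for Ighv1-84 and 0.15 for Ighv1-81, and none passed the edgeR test. Divided by order from Ighm, the nearest 38 genes had a B over T ratio of relative depth of 0.415, the middle 38 genes of 0.615 and the farthest 37 genes of 0.886. In T cells these sets had mean relative depths of 1.13, 1.19 and 1.04. Pooled over the farthest 37 genes, relative depth ran from 0.875 to 0.962 in B and from 0.983 to 1.11 in T cells, and the groups did not overlap.

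Over the pooled 20 nearest V genes, relative depth in the 8 B cell libraries was 0.357 at the lowest, 0.435 at the median and 0.475 at the highest, against 1.09, 1.12 and 1.21 in T cells, and the groups did not overlap. Over the 20 farthest genes it ran from 0.960 to 1.11 in B and from 1.04 to 1.17 in T cells, and the groups overlapped. Across the 112 V genes with calls the ratio of B to T depth followed the distance from Ighm with a Spearman rho of 0.94, while the depth in T cells did not follow it (rho = -0.01). These points share the 16 libraries and 1 chromosome stretch, and neighbouring genes are not independent, so the rho describes the order and carries no p-value.

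**Figure D1:**
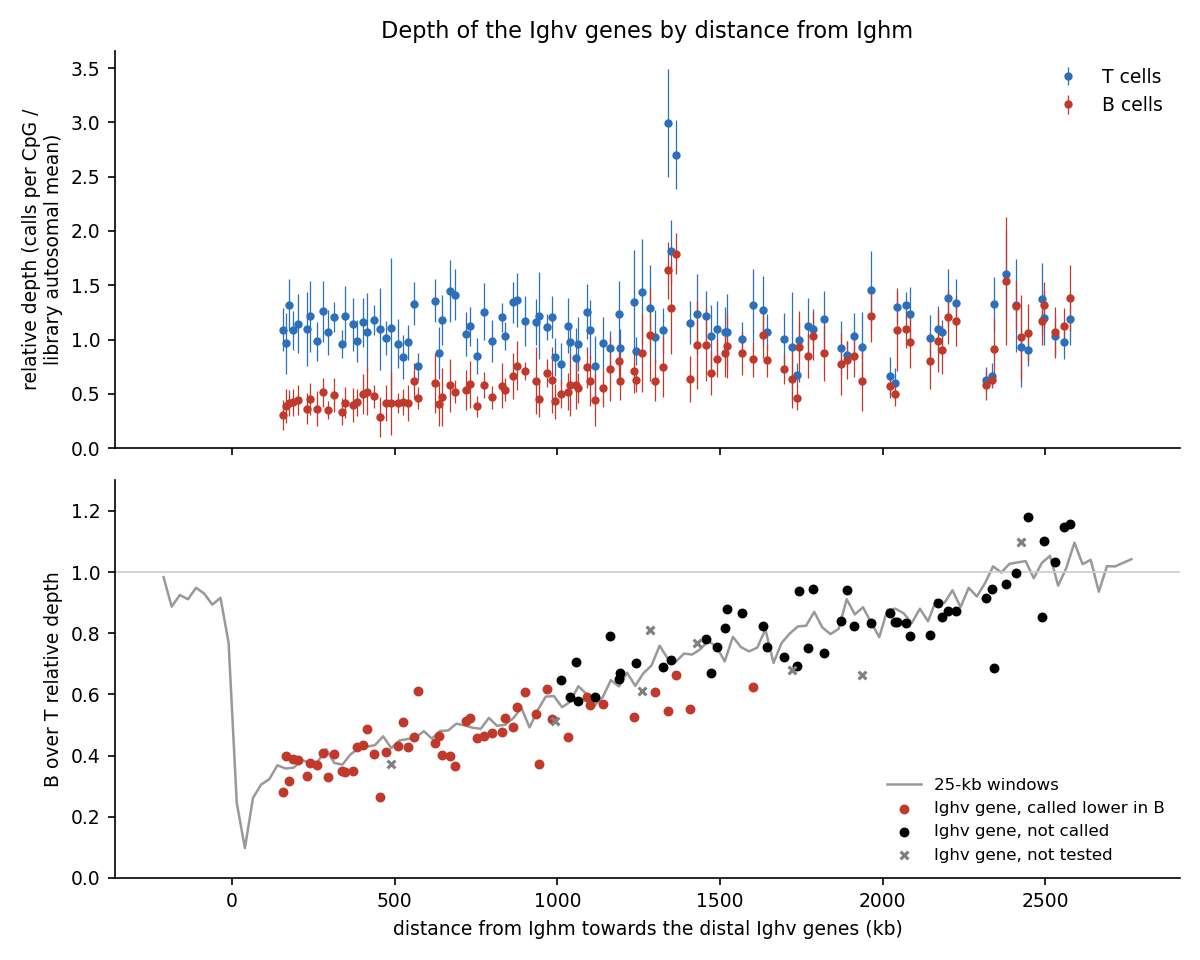
Relative depth of each V gene (calls per CpG over the gene and 500 bp upstream, divided by the autosomal mean) against the distance from Ighm in kb, as mean and SD of the 8 B and of the 8 T cell libraries in the upper panel and as the B over T ratio in the lower panel, where red points are genes called lower in B cells, black points genes not called, crosses genes not tested and the grey line the ratio in windows of 25 kb. The 20 nearest genes together have a ratio of 0.376 and the 20 farthest of 0.947, and the points of Ighv1-23 and Ighv1-26 stand above the rest in T cells at 2.99 and 2.70.

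The other parts of the locus frame this gradient. The Ighd segments (17) and the Ighj segments (4) lie between the V genes and Ighm, and 9 of 9 tested D and 4 of 4 tested J segments were called lower in B cells. The span from the D to the J segments had a relative depth of 0.167 to 0.1997 in B and of 0.896 to 0.989 in T cells. The difference had a two-sided exact permutation p of 0.000155, the smallest that 8 against 8 libraries allow (0.000233 after Benjamini-Hochberg adjustment over 3 intervals). Between the first D segment and Ighv5-2 the mean fell from 0.883 ± 0.0246 in T to 0.307 ± 0.0133 in B cells (SD, n = 8 each, exact permutation p = 0.000155). In the 100 kb beyond Ighv1-85 both means were 1.07 (exact permutation p = 0.997). Of the 8 Igh constant genes, edgeR called 2 lower in B cells, against 0.343% of all genes. Their pooled mean relative depth was 1.13 in B and 1.26 in T cells.

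The V genes of the kappa light chain had a median log2 fold change in depth of -0.07, and of 83 tested Igkv genes edgeR called 0 lower in B cells (5 at an unadjusted p under 0.05). Of the 22 Trbv genes of the T cell receptor beta chain, 13 were called higher in B cells (background 0.357%), that is lower in T cells, with a median of 0.73. The 70 Ighv pseudogenes lie among the V genes on the same strand, and 21 of the 56 tested were called lower in B cells (background 0.343%).

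A group of Ighv1 genes stood above the gradient in both cell types. Ighv1-23 had a mean relative depth of 1.64 in B and 2.99 in T cells, Ighv1-24 of 1.29 and 1.81, and Ighv1-26 of 1.79 and 2.70, where a value near 1 is the genome-wide depth. The share of their 64-base words found elsewhere in the genome was 26.1%, 31.5% and 37.7%, against a median of 10.97% over the 113 genes. The part of this excess depth in the methylation values of these 3 genes was not tested.

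Methylation over the V genes differed between the cell types at a few genes, in both directions. A methylation level is the percentage of calls that were methylated, pooled over the CpGs of the gene. Genes of 2 CpGs or more were tested where 5 or more libraries of each cell type held 10 calls or more, in a quasi-binomial model that took sex and assay into account. It was called at an adjusted p under 0.05 over all 46935 genes tested and a difference of at least 20 percentage points. Of the 113 V genes, 68 could be tested, 24 had 1 CpG, 5 had none and 16 had too few calls. Of these 68, 3 were called higher in B cells (background 1.01% of all genes) and 2 higher in T cells (background 0.362%). Counted by the adjusted p alone, 11 were higher in B cells (background 12.6%) and 5 in T cells (background 3.39%).

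The median level of the 68 tested V genes was 63.8% in B and 63.0% in T cells, below the 84.7% and 83.9% of all tested genes. The median difference, B minus T, was 0.62 points over the V genes and 0.715 points over all genes. Between V genes the levels covered nearly the whole scale. The lowest means over both cell types were 5.62% ± 4.26 in B and 0.714% ± 2.02 in T cells for Ighv9-4, 1.22% ± 2.28 and 8.01% ± 6.44 for Ighv8-6, and 8.87% ± 8.45 and 0.595% ± 1.68 for Ighv1-54 (SD, n = 8 each). The highest were those of Ighv16-1 (98.1% and 96.6%), Ighv6-3 (95.9% and 98.5%) and Ighv3-8 (96.3% and 96.5%).

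Ighv1-66 had the largest difference of the 5 called genes. Its level in the B cell libraries was 55.0% at the lowest, 69.2% at the median and 80.0% at the highest, and in the T cell libraries 15.4%, 33.4% and 50%. The groups did not overlap. The means differed by 35.8 points (adjusted p = 0.00112 in the quasi-binomial model, two-sided exact permutation p = 0.000155). Of its CpGs in the printed exon, the one at base 281 was methylated in 61.6% of 73 calls in B (95% Wilson interval 50.2% to 71.9%) and 12.3% of 73 calls in T cells (6.62% to 21.8%), and the one at base 218 in 45.3% and 1.10%. The third CpG lies outside the printed stretch and was near 92% in both.

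Ighv1-69 ranged from 16.7% to 42.1% in B cells with a median of 26.5%. In T cells 7 libraries were at 0% and 1 was at 12.5%. The groups did not overlap, and the mean fell from 26.6% ± 8.50 to 1.56% ± 4.42 (adjusted p = 0.000651 in the quasi-binomial model, two-sided exact permutation p = 0.000155, n = 8 each). The gap lay mostly in the CpG at base 150, methylated in 40.6% of 69 calls in B (29.8% to 52.4%) and 1.49% of 67 calls in T cells (0.264% to 7.98%).

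Ighv1-59, whose exon is close to that of Ighv1-69 in the lines above, ranged from 41.4% to 66.7% around 47.1% in B and from 15.4% to 33.3% around 23.8% in T cells. Here too the groups did not overlap (adjusted p = 0.00471 in the quasi-binomial model, two-sided exact permutation p = 0.000155). The CpG at base 150 was again the one that differed, with 63.0% of 46 calls methylated in B (48.6% to 75.5%) and 1.64% of 61 calls in T cells (0.290% to 8.72%). The CpG at base 281 was low in both (4.26% and 1.52%), and the CpG nearer the start was at 68.1% and 62.2%. Within the classes of sex and assay, each with 2 libraries per cell type, the difference of Ighv1-59 ran from 17.6 points in female oxBS to 35.6 points in female BS. That of Ighv1-66 ran from 16.4 points in male BS to 48.4 in female oxBS, and that of Ighv1-69 from 16.7 in female oxBS to 32.2 in female BS.

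Ighv1-26 differed in the other direction. Its level was 56.0% to 70.8% with a median of 63.0% in B cells and 91.9% to 100% with a median of 94.9% in T cells, and no library of one group reached the other. The means were 63.6% and 95.3% (adjusted p = 2.97e-05 in the quasi-binomial model, two-sided exact permutation p = 0.000155). Both CpGs contributed, the one at base 89 with 62.4% of 117 calls in B and 92.9% of 170 in T cells, and the one nearer the exon end with 65.3% of 98 and 97.7% of 171. Its difference lay between -30.4 and -33.5 points in every class of sex and assay.

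Ighv8-2 was the other gene higher in T cells. In the 5 B cell libraries with at least 10 calls it ranged from 52.4% to 80.0% around 59.1%, and in the 8 T cell libraries from 80.0% to 90% around 81.5%, so the groups touched at 80.0%. The means were 61.0% and 83.0% (adjusted p = 0.0222 in the quasi-binomial model, two-sided exact permutation p = 0.00233). The widest gap was at the CpG at base 286 of the last 300 bases, with 11.9% of 42 calls methylated in B (5.19% to 25%) and 58.8% of 68 in T cells (47.0% to 69.7%). The other 2 CpGs were also lower in B cells, at 82.9% of 35 calls (67.3% to 91.9%) against 91.1% of 56 (80.7% to 96.1%) at base 200 and 90.6% of 32 (75.8% to 96.8%) against 100% of 73 at base 119. Within the classes of sex and assay the difference over the gene ran from -11.1 points in female oxBS to -33.7 in male oxBS, where, as in both BS classes, 1 B cell library had enough calls.

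Ighv1-23 stood just outside the limit of 20 points. It had 28.2% ± 8.72 in B and 8.26% ± 2.21 in T cells, with an adjusted p of 0.000106 in the quasi-binomial model (exact permutation p = 0.000311). Further below the limit, Ighv1-82 had 23.8% ± 9.08 against 7.21% ± 4.16, and Ighv1-84, at 12.6% ± 7.02 in B cells, had no methylated call in any T cell library. Ighv1-80, also among the 5 farthest genes, had 22.2% ± 11.97 in B and 11.1% ± 7.04 in T cells and was not called (adjusted p = 0.171 in the quasi-binomial model). No V gene had a cell type by sex or a cell type by assay interaction at an adjusted p under 0.05 in the quasi-binomial model, where the background was 0% and 1.64% of all genes (unadjusted p under 0.05 in 2 and 4 of the 68).

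**Figure D2:**
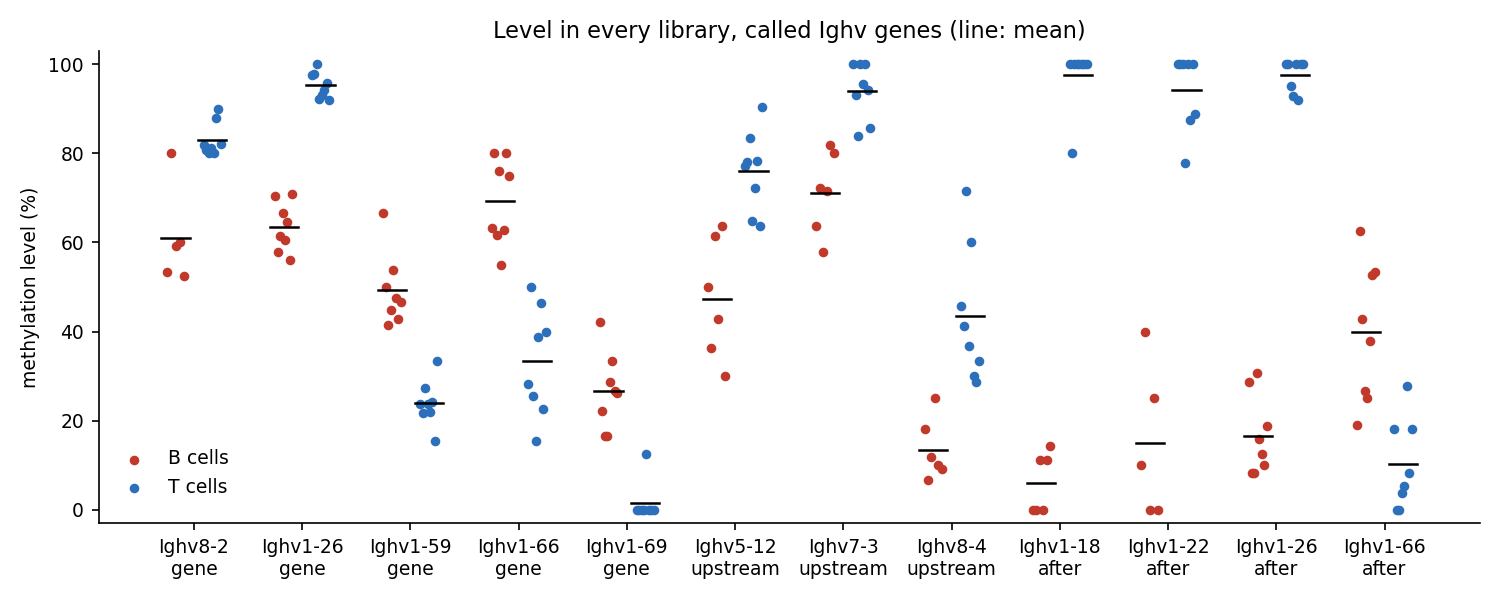
Methylation level in percent of each library of B and T cells for the V genes called over the gene, over the 500 bp upstream and over the 150 bp after the gene, with a point per library that had enough calls and a line at the group mean. The gap between the groups is widest after Ighv1-18, Ighv1-22 and Ighv1-26, where all B cell libraries lie at or below 40% and all T cell libraries at or above 77.8%.

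Methylation over the gene was lowest in the farthest 37 genes. Pooled over all CpGs of a set, the nearest 38 genes had 71.02% ± 1.26 in B and 69.7% ± 1.57 in T cells, the middle 38 genes 69.5% ± 2.48 and 69.2% ± 1.45, and the farthest 37 genes 35.3% ± 2.32 and 28.7% ± 3.08 (SD, n = 8 each). In the nearest 38 genes the B cell libraries ran from 69.5% to 73.5% and the T cell libraries from 67.4% to 72.0%, which overlap. The farthest 37 genes overlapped too, with 31.0% to 38.9% in B and 25.2% to 33.9% in T cells, and their difference was 0.49 points in male BS libraries and 7.16 to 9.65 points in the other classes of sex and assay. Across the 108 V genes with calls over the gene the level had a Spearman rho with distance from Ighm of -0.43 in B and -0.42 in T cells. The fall was not steady. The medians of the tested genes were 77.1% in B and 75.2% in T cells in the nearest 38 genes. They were 85.8% and 91.1% in the middle 38 and 32.8% and 23.9% in the farthest 37. The number of CpGs per gene fell too (rho = -0.35, n = 113), and its part in the fall of the level was not tested. The farthest 37 genes all belong to the Ighv1 or Ighv8 family, so distance and family cannot be told apart in this set. The place of the CpGs within the exon also differed between genes, and its part was not tested. The 20 Ighv pseudogenes tested had medians of 88.1% in B and 91.0% in T cells.

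**Figure D3:**
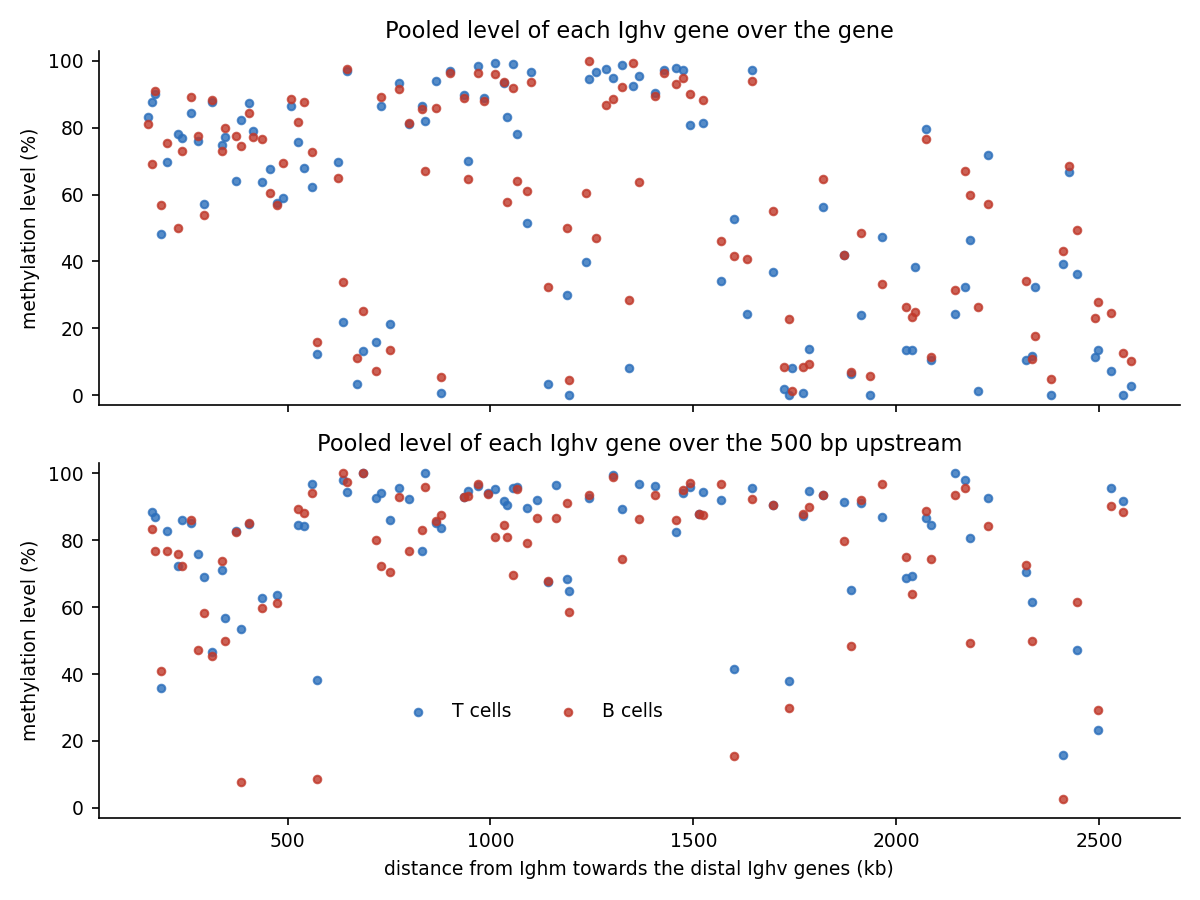
Methylation level in percent, pooled over the 8 libraries of each cell type, for each V gene against the distance from Ighm in kb, over the gene in the upper and over the 500 bp upstream in the lower panel. Over the gene the rho with distance is -0.43 in B and -0.42 in T cells, with the lowest levels in the farthest 37 genes and no steady fall before them. Upstream the level does not follow the distance in T cells (rho = 0.09).

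The families, which are groups of V genes with similar sequences, differed widely from one another. Pooled over the family, the 10 Ighv5 genes were at 80.6% ± 2.44 in B and 80.1% ± 1.40 in T cells, the 6 Ighv3 genes at 86.7% and 89.2%, and the 9 Ighv2 genes at 69.0% and 67.4%. The 2 Ighv10 genes were at 93.4% and 97.7% and the single Ighv16 gene at 98.3% and 96.6%. At the low end stood the 4 Ighv9 genes with 11.6% ± 4.65 and 7.19% ± 1.44, whose libraries overlapped between the cell types (4.88% to 17.3% and 4.17% to 8.55%).

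Pooled over calls, the Ighv1 family, 53 genes in the part of the locus from 1064 kb outwards, was at 45.1% ± 3.01 in B and 38.6% ± 2.77 in T cells, and the 9 Ighv8 genes interspersed with it went the other way, at 39.1% ± 3.98 and 50.1% ± 3.08. The Ighv1 libraries overlapped between the cell types, with 40.4% to 51.0% in B and 35.1% to 42.8% in T cells. The Ighv8 libraries did not, with 32.2% to 42.7% in B and 47.0% to 55.5% in T cells. Pooling weights each gene by its calls, and these weights differ between the cell types because the depth in B cells changes along the locus. With each tested gene counted once, the median of the gene means was 40.0% in B and 40.7% in T cells for the 9 Ighv8 genes, and 46.6% and 33.8% for the 28 Ighv1 genes tested. A median rests on the middle of each ranking and does not measure the gap gene by gene. The near equality of the Ighv8 medians therefore does not show that the single Ighv8 genes were equal between the cell types. Ighv15-2, the only gene of its family and not tested because it has 1 CpG, had pooled levels of 0% to 62.5% in B and 0% to 11.1% in T cells. For the gene with the most calls in some other families, the mean was 91.3% in B and 92.8% in T cells for Ighv3-3, 83.6% and 75.2% for Ighv4-1, 71.5% and 61.6% for Ighv11-1, and 57.02% and 70.9% for Ighv8-12, none of them called. It was 57.3% and 57.2% for Ighv7-1, 93.1% and 97.1% for Ighv10-3 and 89.2% and 89.98% for Ighv13-2, also not called. Ighv12-3 and Ighv14-4 had too few calls for the test, with pooled levels of 64.6% in B and 70.1% in T cells and of 13.4% and 21.3%.

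Over the 500 bp upstream, where the promoter lies, levels were compared in the same way. Of the 113 V genes 28 could be tested over the 500 bp before the start, while 28 had no CpG there, 27 had 1 and 30 had too few calls. The median was 85.9% in B and 89.7% in T cells, against 78.2% and 77.2% over all 43121 genes tested. Of the 28, 0 were called higher in B cells by the quasi-binomial model, and 0 at an unadjusted p under 0.05 (background 1.67% called), and 3 were called higher in T cells (background 0.983%). Across the 81 genes with calls in both windows, the upstream level was above the level over the gene in 57 in T and 55 in B cells. The 20 V genes nearest to Ighm went the other way when pooled, with 64.7% ± 6.20 in B and 72.4% ± 1.54 in T cells upstream against 76.5% ± 2.11 and 75.9% ± 1.36 over the gene, and the 10 Ighv5 genes were at 66.4% and 76.6% upstream against 80.6% and 80.1%.

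The 3 called upstream regions rested on few calls. Ighv5-12 had 30% to 63.6% around 46.4% in 6 B cell libraries and 63.6% to 90.5% around 77.6% in 8 T cell libraries (adjusted p = 0.0394 in the quasi-binomial model, two-sided exact permutation p = 0.000666). Ighv8-4 had 6.67% to 25% around 10.9% and 28.6% to 71.4% around 39.0% (adjusted p = 0.0389, exact permutation p = 0.000666), and Ighv7-3 57.9% to 81.8% around 71.8% and 83.9% to 100% around 94.8% (adjusted p = 0.0374, exact permutation p = 0.000333). The groups met at 63.6% for Ighv5-12 and did not overlap for the other two. All 3 calls were lost when the 2 male BS libraries of B cells were left out, and leaving out any single library gave between 0 and 2 calls.

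Around the end of the V exon, where the recombination signal begins, methylation dropped in both cell types. In bins of 50 bp pooled over all V genes, the level fell from 76.6% ± 2.97 in B and 81.8% in T cells at 151 to 200 bp before the exon end to 27.7% ± 1.21 and 28.5% in the last 50 bp, and it was 20.1% ± 4.82 and 21.3% in the first 50 bp after it. In the bin centred 275 bp after the end it had returned to 72.0% and 63.5%. The bins hold the CpGs of different sets of V genes, so the profile does not follow single genes. They also weight the genes by calls, and the depth in B cells relative to T cells was 0.415 in the nearest 38 and 0.886 in the farthest 37 genes, so the near equality of the pooled levels does not carry over to each part of the locus. In the last 50 bp the nearest 38 genes were at 40.2% in B and 45.3% in T cells, and the middle 38 at 47.5% and 45.7%. The Ighv pseudogenes were at 64.2% in B and 59.2% in T cells in the last 50 bp and at 64.2% and 67.9% in the first 50 bp after the end.

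The lowest levels were reached in the farthest 37 genes, with 12.9% ± 1.86 in B and 2.67% in T cells in the last 50 bp and 7.75% ± 4.79 and 0.89% in the next, from 38.4% and 50.4% at 151 to 200 bp before the end. The B cell libraries of the last 50 bp ran from 10.5% to 15.2%. In the nearest 38 genes the lowest bin lay 50 to 99 bp after the end, at 11.5% in B and 13.4% in T cells, from 91.2% and 90.8% at 151 to 200 bp before the end. In the middle 38 genes the same bin was at 43.3% ± 7.80 in B and 79.9% in T cells, with no B cell library above 57.8%.

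**Figure D4:**
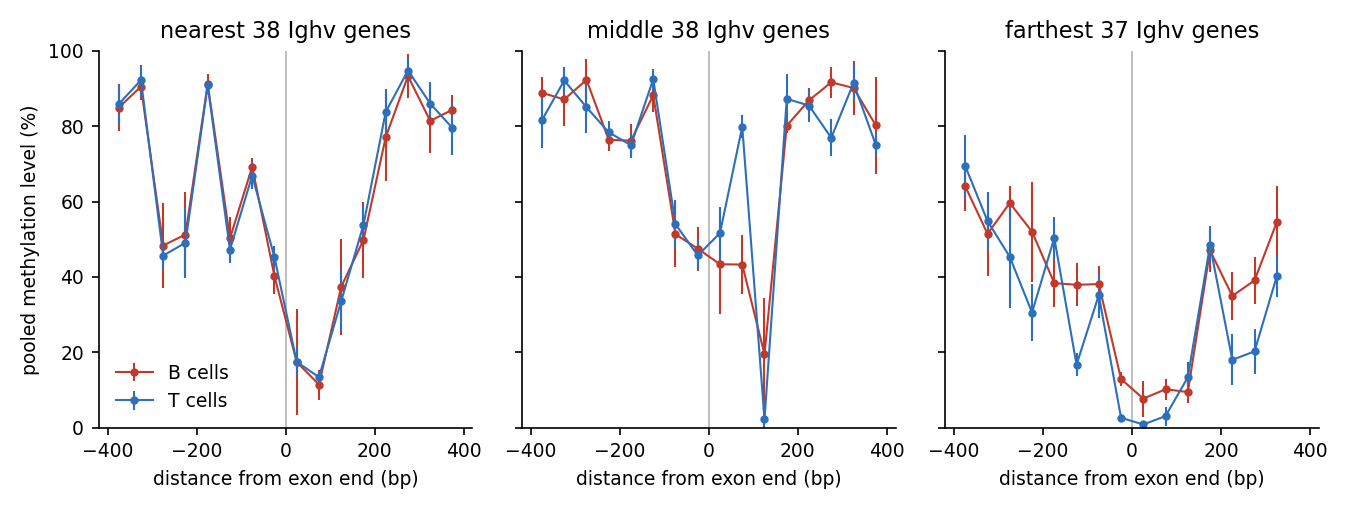
Methylation level in percent in 50 bp bins against the distance in bp from the end of the V exon, for the nearest 38, middle 38 and farthest 37 V genes by distance from Ighm, with points for the mean and bars for the SD of the 8 libraries of each cell type. The level dips around the exon end, to 11.5% in B cells of the nearest 38 genes and to 0.89% in T cells of the farthest 37. In the middle 38 genes the cell types part 50 to 99 bp after the end, in a bin of 12 CpGs where the gap lies in those of a few Ighv1 genes.

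In the Ighv1 family 24 genes share a CpG 18 bases before the exon end, which is base 281 of the printed exons of Ighv1-69, Ighv1-59, Ighv1-66 and Ighv1-36. Of these 24, 19 were under 20% in both cell types, and the pooled level was higher in B cells in 22. The median over the genes was 11.4% in B and 1.03% in T cells. Pooled over the genes, the B cell libraries ran from 13.7% to 22.0% with a median of 17.2% and the T cell libraries from 5.66% to 9.48% with a median of 7.67%, and the groups did not overlap. The 3 highest levels in B cells were those of Ighv1-36, with 93.7% of 63 calls in B (84.8% to 97.5%) and 97.3% of 75 calls in T cells (90.8% to 99.3%), of Ighv1-66 with the values given above, and of Ighv1-5, with 36.7% of 49 calls in B (24.7% to 50.7%) and 29.5% of 78 calls in T cells (20.5% to 40.4%). The site was chosen after its values were seen, so no test is given. Of the 24 genes, all but Ighv1-5, Ighv1-12 and Ighv1-36 belong to the farthest 37. Their shared CpG is among the 35 CpGs of the last 50 bp in that set, so the values given above for that bin rest in large part on the same calls.

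**Figure D5:**
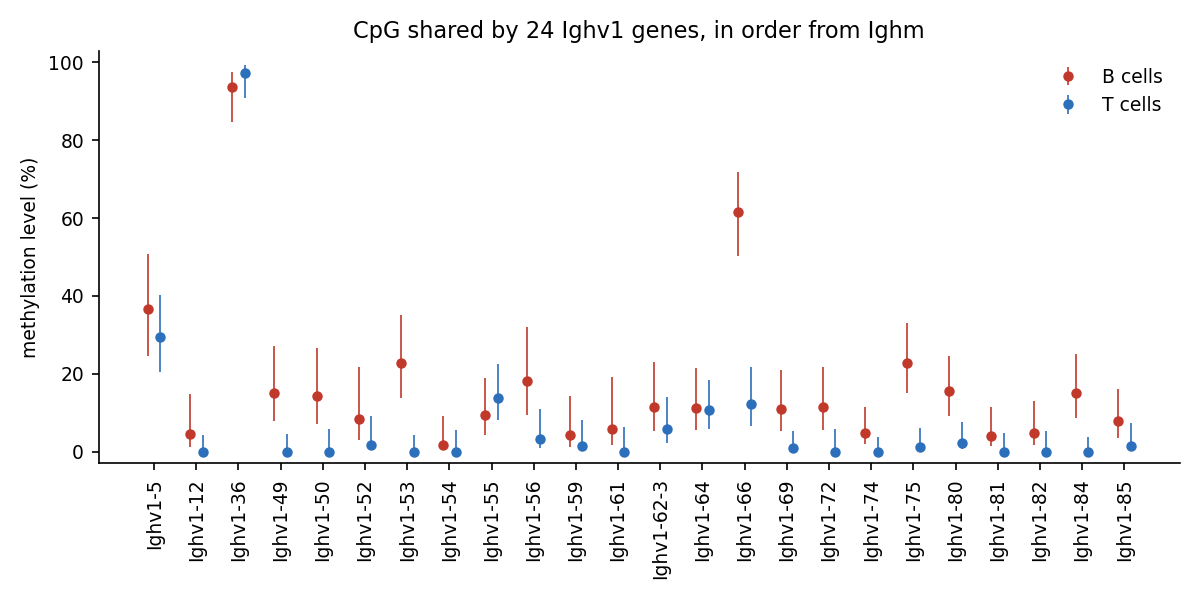
Methylation level in percent of the CpG 18 bases before the exon end in each of the 24 Ighv1 genes that have it, in order of distance from Ighm, with the calls of the 8 libraries of a cell type pooled and bars for the 95% Wilson interval. In 19 genes both points lie under 20%, and Ighv1-36 stands apart at 93.7% in B and 97.3% in T cells.

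Ighv9-4 had low levels at every CpG of its printed stretch. Its 4 CpGs, all in the part towards the exon end, lie at bases 205, 278, 284 and 296 of the printed stretch, and 12.5%, 0%, 4.26% and 4.35% of 46 to 48 calls were methylated in B cells. In T cells the values were 0%, 0%, 1.19% and 1.15% of 84 to 95 calls. At 47 calls a count of 0 still allows a level of up to 7.56% (upper bound of the 95% Wilson interval). Ighv5-2 was mostly highly methylated, with 70.6% to 100% in B and 82.7% to 97.2% in T cells at 4 of its printed CpGs and 25% and 33.3% at the first, base 85. These intervals cover counting error only and leave out the spread between the 8 libraries whose calls were pooled. At base 281 of Ighv1-66, with an interval of 50.2% to 71.9% in B cells, the single B cell libraries ran from 37.5% to 100%. Several calls at 1 CpG can also come from 1 DNA fragment.

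The widest differences lay just after the V exon. The 150 bp after the gene were examined because of the drop around the exon end, so this window was chosen after the data were seen, and it was tested with the model used over the gene for windows with 1 CpG or more where 5 or more libraries of both cell types held 5 calls or more. Of the 113 V genes 37 could be tested, 47 had no CpG and 29 had too few calls. Their median level was 6.67% in B and 10.2% in T cells, against 93.3% and 92.6% over all 28172 windows tested, and 20 of the 37 were under 20% in both. Of the 37, 3 were called higher in T cells (background 1.14%) and 1 higher in B cells (background 1.68%). All of these calls were lost with BS, oxBS, male or female libraries only, and most with a minimum of 10 calls. Fewer were made without the male BS libraries of B cells.

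After Ighv1-26, the 8 B cell libraries ranged from 8.33% to 30.8% around 14.1% and the 8 T cell libraries from 92.0% to 100% around 100%. The difference of the means was -80.9 points (adjusted p = 2.98e-06 in the quasi-binomial model, two-sided exact permutation p = 0.000155). After Ighv1-18, 6 B cell libraries ranged from 0% to 14.3% and 8 T cell libraries from 80.0% to 100%, with means of 6.08% and 97.5% (adjusted p = 0.000117 in the quasi-binomial model, two-sided exact permutation p = 0.000333). The groups were far apart at both genes.

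After Ighv1-22 the 5 B cell libraries ranged from 0% to 40.0% and the 8 T cell libraries from 77.8% to 100%, with means of 15.0% and 94.3% (adjusted p = 0.00290 in the quasi-binomial model, two-sided exact permutation p = 0.000777). Each of these windows rests on 1 CpG, at base 88 after Ighv1-18 and Ighv1-26 and at base 98 after Ighv1-22. The same calls entered the bin 50 to 99 bp after the exon end of the middle 38 genes given above. Ighv1-66, which was higher in B cells over the gene, was higher in B cells here as well, from 19.05% to 62.5% around 40.4% in B and from 0% to 27.8% around 6.80% in T cells, and the groups overlapped (adjusted p = 0.0367 in the quasi-binomial model, two-sided exact permutation p = 0.00124).

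The CpG at base 88 was also present in similar sequence after Ighv1-19 and Ighv1-36, where too few libraries had 5 calls for the test. After Ighv1-19 it was methylated in 13.9% of 36 calls in B (6.08% to 28.7%) and 95.1% of 61 calls in T cells (86.5% to 98.3%), and after Ighv1-36 in 51.3% of 39 calls (36.2% to 66.1%) and 95.7% of 46 (85.5% to 98.8%). After Ighv1-24 the corresponding CpG, at base 89, was methylated in 98.5% of 66 calls in B (91.9% to 99.7%) and 97.5% of 121 calls in T cells (93.0% to 99.2%). After Ighv1-16 a CpG in similar sequence, at base 95, was methylated in 96.1% of 51 calls in B (86.8% to 98.9%) and 96.3% of 80 calls in T cells (89.5% to 98.7%). Both genes were thus high in both cell types, Ighv1-16 with the heptamer CACAGTG at base 1 of its printed stretch and Ighv1-24 without it. Ighv1-26 and Ighv1-24 have the excess depth given above in both cell types.

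Outside the V genes the level differed from one stretch of the locus to the next. From the last J segment to Ighm, the level was 6.29% to 17.2% around 11.8% in B cells and 23.0% to 46.2% around 37.5% in T cells, which do not overlap (exact permutation p = 0.000155). Its relative depth was 0.699 to 1.11 in B and 1.08 to 1.27 in T cells (exact permutation p = 0.000311). Over the span from the D to the J segments the level was 73.6% to 80.3% in B and 81.7% to 85.6% in T cells, which do not overlap (exact permutation p = 0.000155). From the first D segment to Ighv5-2 the mean level was 88.1% in B and 86.7% in T cells, a difference of 1.38 points (exact permutation p = 0.00808). It was 0.505 points with oxBS libraries only (exact permutation p = 0.457), and with male or female libraries only its p was 0.114 and 0.0857 in the same exact test.

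Genes that act in V(D)J joining and in folding of the heavy chain locus were read from a list of 18 that includes Rag1 and Rag2, the recombinase, and Pax5, Yy1 and Ctcf, which bind the locus. Over the gene 1 of 18 was called, Ikzf1, a transcription factor of lymphocytes, at 58.0% ± 2.59 in B and 32.4% ± 7.80 in T cells (SD, n = 8 each). Over the 500 bp upstream 0 of 18 were called by the quasi-binomial model, and 4 had an unadjusted p under 0.05. The background upstream was 1.67% called higher in B cells and 0.983% called higher in T cells. Rag1 was at 78.5% in B and 82.3% in T cells over the gene and Rag2 at 54.9% and 59.7%, and their differences were under the limit of 20 points.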

How the data were processed

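Whole-genome bisulphite libraries of 8 B cell and 8 T cell samples were analysed. The deposited tables hold, per CpG with both strands combined, counts of methylated and of unmethylated calls, which the authors made by trimming (Trim Galore 0.6.0), alignment to mm10 (Bismark 0.20.0) and filtering (SAMtools 1.3.1), as the submitters' processing notes name them. Both counts were used as deposited. A call covers 1 read at 1 CpG, so low depth widens every level. A coverage of 5.83 to 8.07 calls per CpG leaves single CpGs of single libraries unreadable.

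Calls were pooled over GENCODE vM21 genes, over the 500 bp upstream and over the 150 bp after the gene in Python 3.11.15 (numpy 2.4.6, scipy 1.17.1), and tested over all genes with a quasi-binomial model with sex and assay as covariates and Benjamini-Hochberg adjustment. Depth was tested with edgeR 4.0.16 in R 4.3.3 after TMM normalisation, and DESeq2 1.42.0 was an alternative. Exact permutation tests enumerated all label assignments, 12870 for 8 against 8 and fewer where libraries lacked calls or were left out. On simulated methylation data, 184 of 200 genes changed by 30 points were called, and 0 of 11800 unchanged genes. On simulated depth for the B against T comparison, 75 of 100 genes were called at log2 -0.5, 97 of 100 at -1 and 4 of 11800 unchanged genes. Both simulations drew genes from all those tested, with their own depths. The V genes hold few CpGs and have low depth in B cells, so these shares do not give the recovery among V genes, which was not measured.

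The V genes, gene lists and tests were chosen with earlier results of these data known. The V genes named are the 5 nearest to and 5 farthest from Ighm, those called, those with the 3 lowest and 3 highest levels, those with the 4 lowest and 4 highest depth ratios, and the gene with the most calls of each family. Ighv1-5, Ighv1-16, Ighv1-18, Ighv1-19, Ighv1-22, Ighv1-24, Ighv1-36, Ighv6-6 and the just-uncalled genes were named after their values were seen. Alternatives changed the minimum of calls or CpGs, the limit of the difference, the window, the test, the covariates and the libraries. The authors kept reads with a mapping quality of at least 10, which removes reads that match several V genes equally well, and positions that are no CpG of the reference were left out.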

Additional observations from a re-analysis of the deposited data

Results flagged for a closer look

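Of 76 groups of libraries examined for a library far from the others by Dixon's criterion, 8 stood out, where chance gives about 1 in 20. Over Ighv8-2, the female oxBS library 9 of B cells was at 80.0% against 60.0% in the next of 5 libraries. Over Ighv1-69, the male BS library 5 of T cells was at 12.5% with the other 7 at 0%. After Ighv1-18, the female BS library 15 of T cells was at 80.0% with the other 7 at 100%. This window holds 1 CpG, where 98.7% of 77 T cell calls over all libraries were methylated, so the flag rests on few calls. The male BS library 1 of B cells had the lowest level over the farthest 20 V genes, 30.4% against 34.3% in the next. The female oxBS library 11 of B cells had the highest level over the nearest 38 genes, 73.5% against 71.3%. The male oxBS library 8 of T cells had the highest relative depth there, 1.21 against 1.13. The female oxBS library 9 of B cells had the highest level upstream of the middle 38 genes, 91.4% against 85.5%. The male BS library 4 of B cells had a relative depth of 0.1997 over the span from the D to the J segments, against 0.1815 in the next.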

How the results depend on the processing

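The 5 V genes called over the gene became 2 of 23 tested with a minimum of 20 calls, 8 of 83 with a minimum of 5 calls, 12 with a limit of 10 points, 16 with no limit, 2 with a limit of 30 points, 8 with the exact permutation test in place of the model, 0 of 37 with a minimum of 4 CpGs, 1 with BS libraries only, 0 with male libraries only and 1 with female libraries only. Leaving out 1 library at a time gave 4 to 7. The 3 calls over the 500 bp upstream became 0 with a minimum of 20 calls, a limit of 30 points, only CpGs with at least 5 calls, a minimum of 4 CpGs, BS, oxBS, male or female libraries only, and without the male BS libraries of B cells, and 1 over 250 bp; without any 1 library they were 0 to 2. The 54 genes of lower depth became 9 of 12 with a mean of at least 50 calls, 23 with BS, 24 with oxBS, 16 with male and 31 with female libraries only, and 45 to 54 without any 1 library; no V gene was called higher under these settings. DESeq2 left every V gene without an adjusted p through its independent filtering and called 54 lower without that filtering, an alternative chosen after seeing the data. Stricter minimums test fewer genes by construction; the cause of the other shifts was not tested.

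The 4 calls over the 150 bp after the gene, for which every alternative was chosen after seeing the data, became 1 of 9 with a minimum of 10 calls, 7 over 250 bp, 0 with BS, 0 with oxBS, 0 with male and 0 with female libraries only, and 3 without the male BS libraries of B cells, 4 over 100 bp and 5 with the exact permutation test or without covariates. The level difference between the first D segment and Ighv5-2 was 0.505 points with oxBS (exact permutation p = 0.457), 1.28 with male (p = 0.114) and 1.48 with female libraries only (p = 0.0857), where 4 against 4 libraries can reach 0.0286 at the lowest. None of the called genes, depth fold changes and intervals followed through the alternatives changed sign. Pooled levels over the gene did so between the classes of sex and assay. Over the nearest 38 genes B minus T was -0.79 points in male BS libraries and 1.45 to 2.45 in the other classes. Over the farthest 20 genes it was -0.83 points in male BS libraries and 8.77 to 10.7 in the other classes. No paired analysis was possible because the library numbers differ between the cell types and none is shared.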

Other observations

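The J segments, which are joined to the D segments first, differed between the cell types in the 500 bp before them. Pooled over the 4 Ighj segments, the upstream level was 0% to 10.3% around 4.70% in B cells and 58.9% to 85.1% around 70.8% in T cells, and the groups did not overlap. The levels rest on fewer calls per CpG in B cells, where the relative depth of these segments was 0.295 ± 0.0477, against 1.15 ± 0.259 in T cells (SD, n = 8 each).

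The Igkv genes of the kappa light chain and the Trbv genes of the T cell receptor beta chain also differed between the cell types over the gene, with 14 of 60 tested Igkv genes called higher in T cells and 11 of 20 tested Trbv genes called higher in B cells (background 0.362% and 1.01% of all genes). Pooled upstream levels were 67.4% ± 3.46 in B and 86.7% ± 0.742 in T cells for the Igkv genes, and 61.7% ± 1.27 and 33.8% ± 6.57 for the Trbv genes (SD, n = 8 each). No library of one cell type reached the other in either group.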
